A study of Rattus norvegicus with 12 samples.

Results

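The genes described here govern whether a tissue lays down mineral and whether its cartilage-like cells enlarge. They are Enpp1, Ankh, Alpl, Phospho1, Spp1, Ibsp, Mgp, Runx2, Sp7 and Mef2c, taken by gene name from the deposited expression table of 21071 genes, where each of the 10 had a row. They were followed through 12 RNA-seq libraries of cultured rat cells from the nucleus pulposus, the soft centre of the intervertebral disc. The labels describe 4 groups of 3 libraries. In the first, cells received erastin together with miR-Exo, which the design text describes as exosomes of nucleus pulposus progenitor cells (NPPC-Exo) that overexpress miR-221-3p. In the second, cells received erastin and NPPC-Exo. The third group received miR-Exo and the fourth NPPC-Exo, both without erastin. Erastin is a small molecule used to bring on ferroptosis, an iron-dependent form of cell death. The labels give an exosome concentration of 50 µg/mL and an erastin range of 0.1 to 5 µM over 48 h, with no dose for a given library. Every group received exosomes, so no library shows cells without them. Titles name erastin where the column names say Model.

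Mineral forms where phosphate outweighs pyrophosphate, a potent inhibitor of crystal growth. Enpp1 makes pyrophosphate outside the cell and Ankh lets its precursor ATP out, while Alpl destroys pyrophosphate and, with Phospho1, frees phosphate. Spp1 and Mgp are proteins that restrain crystals, Ibsp is a bone protein that nucleates them, and Runx2, Sp7 and Mef2c are transcription factors of bone formation and chondrocyte hypertrophy. In the healthy disc the nucleus pulposus stays unmineralised, and calcification is a feature of degenerated discs.

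Library totals ran from 54616827 to 68865720 counts, and 15650 genes, all 10 members among them, passed the filter on low counts. The Mir221 row averaged 24.2 ± 0.3 CPM (a count scaled to library depth) with erastin and miR-Exo and 0.352 ± 0.0515 CPM with erastin and NPPC-Exo, and 27.7 ± 1.36 CPM with miR-Exo alone against 0.31 ± 0.00882 CPM with NPPC-Exo alone (SD, n = 3 each). The mature strand, taken from the RefSeq rat assembly GRCr8, reads 5′ to 3′ with its seed, bases 2 to 8, in capitals, and is printed because the design text names this small RNA. The Mir221 row is that of the gene, and the mature strand was not measured apart from it.
rno-miR-221-3p: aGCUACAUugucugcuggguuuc
Of 12 nucleus pulposus markers, 9 were measured. Their summed FPKM, a level corrected for gene length and library depth, spanned 222 to 232 with erastin and miR-Exo, 241 to 259 with erastin and NPPC-Exo, 1073 to 1240 with miR-Exo and 984 to 1140 with NPPC-Exo. Most of this was Acan, at 122, 134, 841 and 775 FPKM in that order of groups, and Col2a1, at 16.4, 51, 201 and 190 FPKM. Sox9 and Pax1 were likewise lower with erastin than without, whereas Cd24, at 12.6, 8.79, 6.13 and 4.02 FPKM, Foxf1, at 1.07, 1.19, 0.593 and 0.427 FPKM, and Hif1a, at 64.8, 42, 47.7 and 38.1 FPKM, had higher means with erastin for either kind of exosome. Krt8 averaged 1.78, 1.48, 2.31 and 1.36 FPKM in that order of groups. Krt18 lay between 0 and 0.18 FPKM in all 12 libraries, and no row was found under the names Krt19, Tbxt and Car12. Markers of blood vessel (4 measured) summed to at most 0.78 FPKM in any library, with Kdr and Tie1 at or near 0. Tek made up most of this, at 0.647, 0.593, 0.267 and 0.197 FPKM in the order of groups above. Vwf, at 0.1, 0.0733, 0.0133 and 0.0233 FPKM, likewise had higher means with erastin. The macrophage and osteoclast markers (8 measured) summed to 38.2 to 41.3 FPKM with erastin and miR-Exo, 24.5 to 28.6 with erastin and NPPC-Exo, 23.8 to 28.1 with miR-Exo and 19.6 to 24 with NPPC-Exo, with Csf1r, Aif1 and Itgam at or below 0.13 FPKM. Within that list Cd14 averaged 15, 7.98, 4.34 and 3.63 FPKM and Cd68 2.14, 0.853, 0.797 and 0.327 FPKM in the same order, while Ctsk, at 17.8, 13.8, 17 and 14.5 FPKM, and Acp5 made up most of the rest. Of the osteoblast markers (6 measured), Col1a1 made up nearly all of a sum of 1153 to 1609 FPKM with erastin and miR-Exo, 2038 to 2553 with erastin and NPPC-Exo, 4031 to 5346 with miR-Exo and 3460 to 4758 with NPPC-Exo, while Bglap, an osteoblast product, stayed at or below 0.53 FPKM. Muscle markers (6 measured) summed to 4.23 to 5.22, 6.62 to 11.3, 35.9 to 38.6 and 54.4 to 55.4 FPKM in the same order of groups. Acta1 was the largest part except with erastin and miR-Exo, where it averaged 1.51 FPKM beside Tnnt3 at 1.53. Acta1 and Tnnt3 had lower means with erastin for either kind of exosome. Des had higher ones, at 1.32, 0.833, 1.21 and 0.53 FPKM, and Myod1 and Myog lay at or below 0.35 FPKM. The annulus and tendon fibroblast markers (7 measured), again mostly Col1a1, summed to 1218 to 1668, 2083 to 2602, 4136 to 5459 and 3573 to 4862 FPKM. Scx, Mkx, Fmod and Thbs4 also had lower means with erastin for either kind of exosome. Dcn went the other way, at 15.7, 2.05, 2.24 and 1.6 FPKM, highest with erastin and miR-Exo. The part of these shifts in the results below was not tested.

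Spp1, Mgp and Enpp1 were the most abundant of the 10 genes in all 4 groups, and Phospho1, Alpl, Ibsp and Sp7 the least. On the FPKM scale, which corrects for gene length, Spp1 averaged 1057 ± 64.5 with erastin and miR-Exo, 1595 ± 15.7 with erastin and NPPC-Exo, 1801 ± 86 with miR-Exo and 2308 ± 206 with NPPC-Exo (SD, n = 3 each), which placed it 35th, 24th, 23rd and 20th of all genes. Mgp averaged 427, 294, 541 and 715 FPKM in those groups, and Enpp1 60.3, 176, 116 and 176 FPKM. At the other end, Alpl averaged 0.233, 0.353, 0.623 and 0.607 FPKM, Sp7 0.273, 0.23, 0.367 and 0.287 FPKM, and Phospho1 1.1, 0.84, 1.23 and 0.763 FPKM. Ibsp was listed at 0 in all 3 libraries with erastin and miR-Exo and averaged 0.0233, 0.36 and 0.67 FPKM in the other groups. Between these extremes Ankh, Mef2c and Runx2 lay within 4.87 to 20 FPKM. The neighbours in the order whose ranges met were Mef2c and Runx2, and Sp7 and Alpl, with erastin and miR-Exo, Alpl and Sp7 with erastin and NPPC-Exo, Sp7 and Ibsp with miR-Exo, and Phospho1 with Ibsp and Ibsp with Alpl with NPPC-Exo. Mef2c ranked below Ankh in both erastin groups and above it in both groups without erastin.

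**Figure D1:**
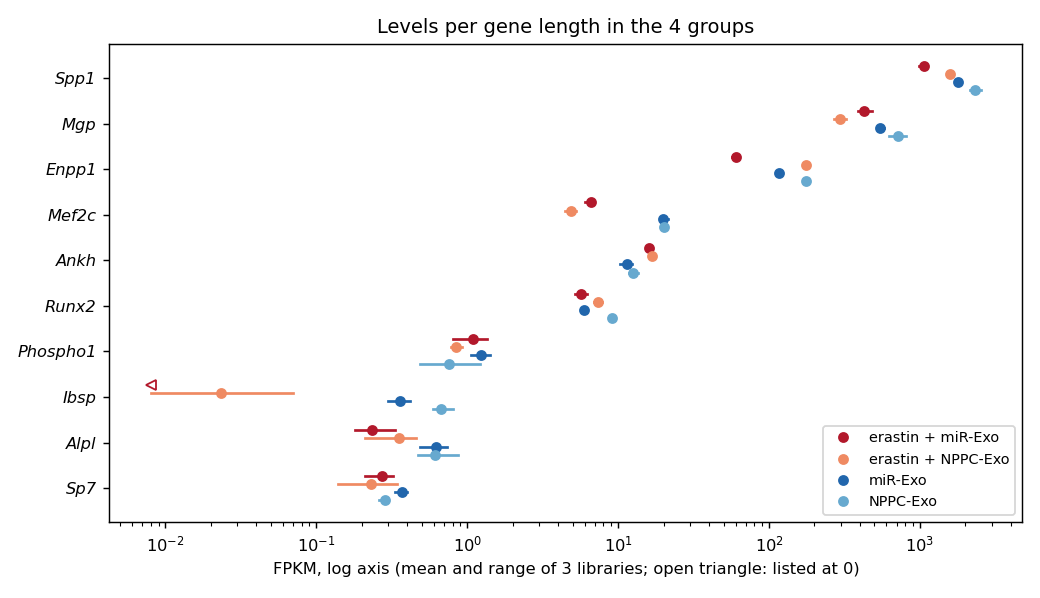
Levels of the 10 genes in FPKM on a log axis, with the mean and the range of 3 libraries in each of the 4 groups. Spp1, at 1057 to 2308 FPKM, stands above Mgp and Enpp1, while Alpl, Sp7 and Ibsp lie below 1 FPKM, and an open triangle marks Ibsp, listed at 0 with erastin and miR-Exo, and a bar reaching the left end of its row includes libraries at 0.

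With erastin and NPPC-Exo against NPPC-Exo, 7 of the 10 genes fell and none rose, where 43.6% of all genes tested were called, 22.1% lower and 21.5% higher. Those that fell were Enpp1, Spp1, Runx2, Alpl, Mgp, Ibsp and Mef2c, and the median log2 change over the 10 was -0.72, beside 0.02 over all genes. The 3 libraries of a group lay wholly apart from those of the other for 7 of the 10, as they did for 53.6% of all genes. With erastin and miR-Exo against miR-Exo the count was again 7 lower and none higher, with 49.1% of all genes called, 24.4% lower and 24.7% higher, and the median was -0.88 beside 0.03. Here 9 of the 10 did not overlap, against 58.4% of all genes, Phospho1 being the exception. A gene is said to rise or fall where its p from edgeR's quasi-likelihood test, adjusted by Benjamini and Hochberg over all genes tested, was under 0.05. In these bulk libraries fewer cells that make a transcript and less of it per cell cannot be told apart.

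Scaling by library size alone moved the median of all genes to 0.30 with NPPC-Exo and 0.33 with miR-Exo, where the TMM scaling used here (trimmed means of log ratios) left it near 0, so changes below that size turn on the scaling. The split of all genes then became 40.9% higher and 11.7% lower with NPPC-Exo and 44.5% higher and 13.8% lower with miR-Exo. That of the 10 genes became 1 higher and 5 lower with NPPC-Exo, and 1 higher and 6 lower with miR-Exo. Under it Enpp1 no longer fell with NPPC-Exo, Runx2 no longer fell with miR-Exo, Alpl no longer fell with NPPC-Exo, and Ankh rose with both, as given with each gene.

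Without erastin, miR-Exo against NPPC-Exo, 4 of the 10 fell, Enpp1, Spp1, Runx2 and Mgp, and none rose, where 10.7% of all genes were called, 6.52% lower and 4.15% higher. The median over the 10 was -0.34 beside 0 over all genes, and groups lay apart for 5 of the 10, against 28.8% of all genes. The number of genes called in this comparison, 1669, was 1042 without miR-Exo replicate 2 and 970 without NPPC-Exo replicate 2, and 4 to 5 of the 10 were called in every fit that left out a library. With erastin, the miR-Exo group against the NPPC-Exo group had 3 of the 10 lower, Enpp1, Spp1 and Runx2, and 2 higher, Mgp and Mef2c, where 31.3% of all genes were called, 15.8% lower and 15.6% higher. The median was -0.32, or -0.16 with Ibsp at its bound, and groups lay apart for 6 of the 10, against 48% of all genes. The 2 comparisons with erastin and the 2 between kinds of exosome share libraries with each other, so their values are not independent. Under library size alone the split of all genes was 8.08% higher and 3.68% lower without erastin, and 24.2% higher and 11.1% lower with it, while the counts of the 10 genes stayed at 4 lower, and at 2 higher and 3 lower.

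**Figure D2:**
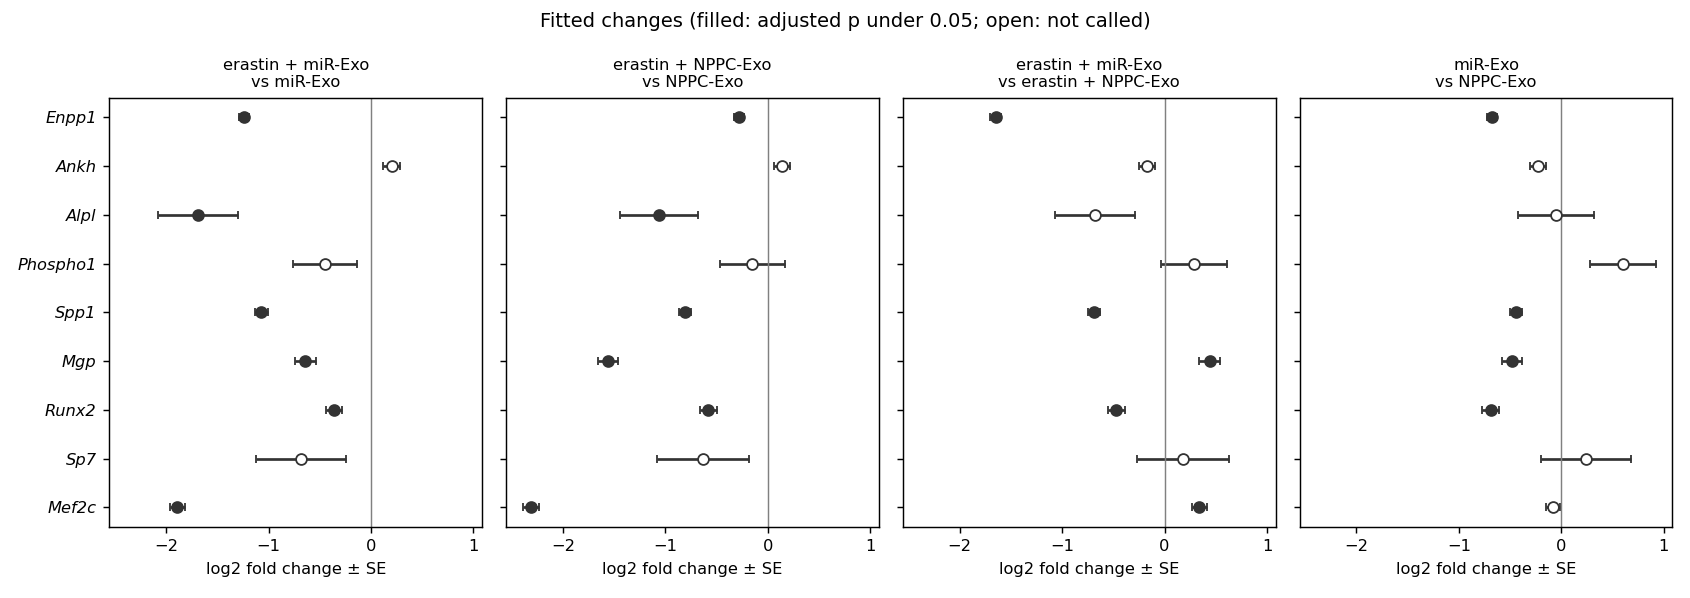
Log2 fold changes of the members other than Ibsp, with bars of 1 SE and filled points for adjusted p under 0.05, in the 4 comparisons, Ibsp being left out because its fitted values with a group at 0 depend on the prior count. Mef2c has the largest falls with erastin, at -2.31 with NPPC-Exo and -1.89 with miR-Exo, and Mgp lies below 0 in all but the comparison of exosome kinds under erastin, at 0.44.

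Enpp1, the ectoenzyme that makes pyrophosphate from ATP, fell most where erastin and miR-Exo met. It stood at 227, 237 and 214 CPM with erastin and miR-Exo, 749, 663 and 709 CPM with erastin and NPPC-Exo, 530, 524 and 550 CPM with miR-Exo alone and 859, 844 and 874 CPM with NPPC-Exo alone. The groups formed 4 separate bands with no shared values, the lowest being erastin with miR-Exo. The log2 change with erastin was -1.24 ± 0.05 with miR-Exo (SE, adjusted p = 4.78e-10) and -0.28 ± 0.05 with NPPC-Exo (adjusted p = 0.000545), and the difference of these, the interaction, was -0.96 (95% interval -1.12 to -0.80, adjusted p = 2.61e-05). Under library size alone the NPPC-Exo value was 0.002 (adjusted p = 0.978), and limma on FPKM, which carry that scaling, did not call it either (adjusted p = 0.943 and 0.945 with pseudocounts of 1 and 0.1). Between exosome kinds Enpp1 fell by 1.65 ± 0.05 with erastin (adjusted p = 1.38e-09) and by 0.68 ± 0.05 without it (adjusted p = 5.93e-06).

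Ankh, the transporter that lets ATP, the source of pyrophosphate, out of the cell, differed little between groups. It stood at 35.3, 37.8 and 35.2 CPM with erastin and miR-Exo, 43, 38.4 and 40.5 CPM with erastin and NPPC-Exo, 28.9, 30.9 and 34.5 CPM with miR-Exo alone and 36.6, 34.2 and 39.7 CPM with NPPC-Exo alone. The change with erastin was 0.20 (95% interval 0.02 to 0.38, adjusted p = 0.0567) with miR-Exo and 0.14 (interval -0.04 to 0.31, adjusted p = 0.193) with NPPC-Exo, neither called. Library size alone gave 0.51 and 0.42, both called (adjusted p = 0.000128 and 0.000656), as they were by limma on FPKM with either pseudocount. A minimum of 1 CPM also called the first (adjusted p = 0.0424), and without miR-Exo replicate 3 the first was called, at 0.27 (adjusted p = 0.0198). For miR-Exo against NPPC-Exo the change was -0.23 (interval -0.41 to -0.05, adjusted p = 0.094), or -0.30 (adjusted p = 0.0498) without miR-Exo replicate 3. The ratio of Enpp1 to Ankh within each library, on the FPKM scale, was 3.86, 3.76 and 3.65 with erastin and miR-Exo, 10.5, 10.4 and 10.5 with erastin and NPPC-Exo, 11, 10.2 and 9.57 with miR-Exo and 14.1, 14.8 and 13.2 with NPPC-Exo. A ratio inside a library does not depend on how libraries are scaled, and its lowest values were those of erastin with miR-Exo.

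**Figure D3:**
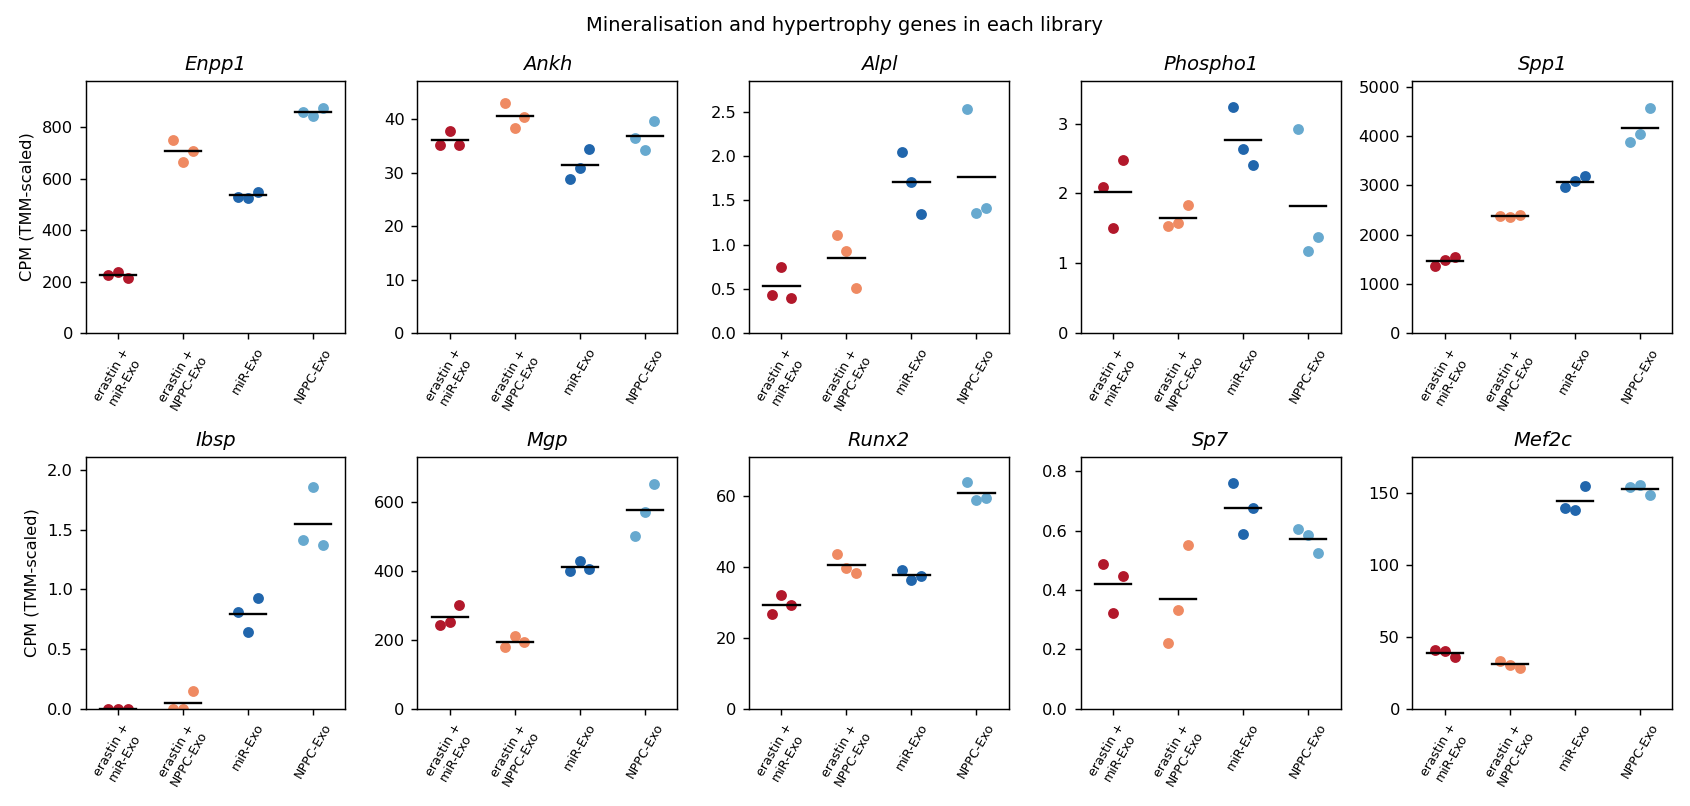
CPM of each of the 10 genes in each of the 12 libraries, on a linear axis from 0 for each gene, with a point per library and a line at each group's mean. Enpp1 is split into 4 bands, from 214 to 237 CPM with erastin and miR-Exo up to 844 to 874 CPM with NPPC-Exo, while those of Phospho1 mingle.

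Alpl, tissue-nonspecific alkaline phosphatase, which degrades pyrophosphate, was scarce and lower with erastin. It had 0.429, 0.748 and 0.401 CPM with erastin and miR-Exo, 1.11, 0.923 and 0.505 CPM with erastin and NPPC-Exo, 2.05, 1.71 and 1.35 CPM with miR-Exo alone and 2.53, 1.36 and 1.41 CPM with NPPC-Exo alone, from 26 to 142 counts per library. A count of 3 corresponded to 0.044 to 0.0565 CPM, and this floor covers counting error only, since the labels name no molecular identifiers, while the intervals of fold changes rest on the spread between libraries. The erastin libraries were below all others. It fell by 1.69 ± 0.39 on the log2 scale with miR-Exo (adjusted p = 0.00274), a call kept in all 12 fits leaving out a library, and by 1.06 ± 0.38 with NPPC-Exo (adjusted p = 0.0374). The second was lost without erastin and NPPC-Exo replicate 2 (-1.11, adjusted p = 0.0727) or 3 (-0.78, adjusted p = 0.143), without NPPC-Exo replicate 1 (-0.71, adjusted p = 0.178), under library size alone (-0.78, adjusted p = 0.106), with the compared groups alone (-1.06, adjusted p = 0.0554), and by limma on log2(FPKM + 1) and log2(FPKM + 0.1) (adjusted p = 0.0749 and 0.0902). Between kinds of exosome no change was called, at -0.68 with erastin (interval -1.53 to 0.17, adjusted p = 0.215) and -0.05 without it (interval -0.85 to 0.75, adjusted p = 0.96).

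Phospho1, the phosphatase that frees phosphate inside matrix vesicles, passed no test. It had 2.09, 1.5 and 2.48 CPM with erastin and miR-Exo, 1.54, 1.57 and 1.83 CPM with erastin and NPPC-Exo, 3.24, 2.63 and 2.41 CPM with miR-Exo alone and 2.92, 1.17 and 1.37 CPM with NPPC-Exo alone. NPPC-Exo replicate 1 stood apart from the other 2 of its group. For miR-Exo against NPPC-Exo the change was 0.60 (interval -0.09 to 1.28, adjusted p = 0.265), or 1.12 (adjusted p = 0.0192) without that library. The changes with erastin were -0.45 with miR-Exo (interval -1.13 to 0.23, adjusted p = 0.265) and -0.15 with NPPC-Exo (interval -0.84 to 0.55, adjusted p = 0.755), the second being 0.37 without the same library.

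Spp1, osteopontin, was the member with the most reads. It stood at 1369, 1487 and 1551 CPM with erastin and miR-Exo, 2368, 2352 and 2404 CPM with erastin and NPPC-Exo, 2957, 3084 and 3183 CPM with miR-Exo alone and 3882, 4039 and 4577 CPM with NPPC-Exo alone. The groups again formed 4 bands without overlap. It fell with erastin by 1.07 ± 0.06 with miR-Exo (adjusted p = 9.28e-09) and by 0.81 ± 0.06 with NPPC-Exo (adjusted p = 1.45e-07). The interaction was -0.25 (interval -0.44 to -0.07, adjusted p = 0.0673), not called, but called without erastin and miR-Exo replicate 3 or NPPC-Exo replicate 3 (-0.33 in both, adjusted p = 0.0218 and 0.0145), and by DESeq2 (-0.26, adjusted p = 0.0223). Between kinds of exosome it fell by 0.69 ± 0.06 with erastin (adjusted p = 3.28e-06) and by 0.44 ± 0.06 without it (adjusted p = 0.000564).

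Ibsp, bone sialoprotein, was all but absent with erastin. It had 0, 0 and 0 counts with erastin and miR-Exo, 0, 0 and 10 with erastin and NPPC-Exo, 47, 37 and 59 with miR-Exo and 79, 99 and 76 with NPPC-Exo. With miR-Exo it was at least 17.7-fold lower with erastin (adjusted p = 0.000489), taking 3 counts as the floor in each library at 0. With NPPC-Exo the fitted change was -4.87 ± 0.95 (adjusted p = 0.00146), resting on erastin and NPPC-Exo replicate 3, the library with 10 counts. Without it the fitted value was -9.55, which depends on the prior count and is no bound. For miR-Exo against NPPC-Exo it averaged 0.793 ± 0.145 and 1.55 ± 0.273 CPM, without overlap and not called (-0.96, interval -2.63 to 0.71, adjusted p = 0.475), although limma on log2(FPKM + 1) called it, at -0.29 (adjusted p = 0.0106). With erastin both kinds of exosome gave values at or near the floor, so no fold is given, and the difference was not called (adjusted p = 0.0728). In the RefSeq order of protein-coding genes on chromosome 14, Ibsp lies between Mepe and Dmp1, and Spp1 between Pkd2 and Mepe. These neighbours were looked up for their place, after values were seen. Dmp1, another acidic bone matrix protein, summed to 8, 0, 82 and 146 counts with erastin and miR-Exo, erastin and NPPC-Exo, miR-Exo and NPPC-Exo, and it fell with erastin under miR-Exo (adjusted p = 0.0193) and under NPPC-Exo (adjusted p = 0.000876). Mepe summed to 8, 28, 28 and 28 counts in the same order and was not called with erastin, while Pkd2 fell by 0.70 ± 0.04 with miR-Exo (adjusted p = 1.53e-08) and by 0.50 ± 0.04 with NPPC-Exo (adjusted p = 4.97e-07).

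The 250 bases before the start of Spp1 and Ibsp, both on the minus strand of chromosome 14 in GRCr8, are shown from RefSeq, 5′ to 3′ along the gene, because the 2 differ most in level among the matrix genes. The windows were searched on both strands for ACCACA (a Runx core), TGANTCA (an AP-1 site), TATAAA and TTTAAA, which occur in 14.5%, 6.34%, 12.9% and 12.3% of 33465 such windows. Capitals mark a match to these letters alone, and other forms of such sites were not searched.
Spp1, chr14:5619805-5620054: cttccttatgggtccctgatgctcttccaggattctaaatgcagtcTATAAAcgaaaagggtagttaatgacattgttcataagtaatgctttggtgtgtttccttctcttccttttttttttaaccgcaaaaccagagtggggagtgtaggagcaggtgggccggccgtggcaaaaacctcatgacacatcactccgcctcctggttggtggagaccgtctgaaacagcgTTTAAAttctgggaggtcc
Ibsp, chr14:5757243-5757492: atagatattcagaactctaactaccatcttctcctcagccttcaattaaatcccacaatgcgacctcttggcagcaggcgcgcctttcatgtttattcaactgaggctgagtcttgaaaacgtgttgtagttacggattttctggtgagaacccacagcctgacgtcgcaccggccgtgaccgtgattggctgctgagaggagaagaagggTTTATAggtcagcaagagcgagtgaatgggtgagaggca
Spp1 held TATAAA and TTTAAA, and Ibsp held TATAAA on the other strand, seen as TTTATA. Of the other members with a window in the table, Phospho1 held TGANTCA and Runx2 is shown further on, while Ankh and Alpl held none of these letters. No window was found for Enpp1, Mgp, Sp7 and Mef2c.

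Mgp, matrix Gla protein, an inhibitor of calcification in cartilage and vessel wall, fell more with erastin under NPPC-Exo than under miR-Exo. It stood at 241, 252 and 300 CPM with erastin and miR-Exo, 180, 212 and 192 CPM with erastin and NPPC-Exo, 400, 428 and 406 CPM with miR-Exo alone and 501, 570 and 652 CPM with NPPC-Exo alone. All 4 groups lay apart, the lowest being erastin with NPPC-Exo. The fall with erastin was -0.64 ± 0.10 with miR-Exo (adjusted p = 0.000125) and -1.56 ± 0.10 with NPPC-Exo (adjusted p = 3.57e-08), and the interaction was 0.92 (interval 0.62 to 1.22, adjusted p = 0.00166). Mgp was higher with miR-Exo than with NPPC-Exo under erastin (0.44 ± 0.10, adjusted p = 0.00443) and lower without erastin (-0.48 ± 0.10, adjusted p = 0.00768). The ratio of Spp1 to Mgp within each library, in FPKM, was 2.53, 2.63 and 2.3 with erastin and miR-Exo, 5.86, 4.94 and 5.56 with erastin and NPPC-Exo, 3.29, 3.2 and 3.49 with miR-Exo and 3.45, 3.15 and 3.12 with NPPC-Exo. It was highest with erastin and NPPC-Exo and lowest with erastin and miR-Exo.

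Mef2c, a factor that drives chondrocyte hypertrophy, fell the most with erastin of the members other than Ibsp. It stood at 40.8, 40.3 and 35.9 CPM with erastin and miR-Exo, 33.4, 30.7 and 28.3 CPM with erastin and NPPC-Exo, 140, 138 and 155 CPM with miR-Exo alone and 154, 156 and 149 CPM with NPPC-Exo alone. Erastin libraries were all far below the rest. The log2 change was -1.89 ± 0.07 with miR-Exo (adjusted p = 2.6e-10) and -2.31 ± 0.08 with NPPC-Exo (adjusted p = 5.45e-11). The interaction, 0.43 (interval 0.21 to 0.65, adjusted p = 0.0177), was lost without erastin and miR-Exo replicate 1 (0.36, adjusted p = 0.0604) or 2 (0.37, adjusted p = 0.055) and without erastin and NPPC-Exo replicate 3 (0.34, adjusted p = 0.061). With erastin Mef2c was higher with miR-Exo than with NPPC-Exo (0.34 ± 0.07, adjusted p = 0.00328), and without it the change was -0.08 (interval -0.24 to 0.07, adjusted p = 0.505).

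Runx2, the master regulator of osteoblast fate, fell in each of the 4 comparisons. Its values were 26.7, 32.1 and 29.2 CPM with erastin and miR-Exo, 43.7, 39.6 and 38.3 CPM with erastin and NPPC-Exo, 39.2, 36.2 and 37.3 CPM with miR-Exo alone and 63.9, 58.9 and 59.4 CPM with NPPC-Exo alone. The lowest libraries were those of erastin with miR-Exo and the highest those of NPPC-Exo. It fell with erastin by 0.36 ± 0.08 with miR-Exo (adjusted p = 0.00183), or 0.05 with library size alone (adjusted p = 0.591) and likewise not called by limma on FPKM (adjusted p = 0.56 and 0.546 with pseudocounts of 1 and 0.1), and by 0.58 ± 0.08 with NPPC-Exo (adjusted p = 3.55e-05). Between kinds of exosome it fell by 0.47 ± 0.08 with erastin (adjusted p = 0.000574) and by 0.69 ± 0.08 without it (adjusted p = 0.000123), and the interaction was 0.23 (interval -0.01 to 0.46, adjusted p = 0.202). Of the starts of Runx2 in RefSeq, the one at chr9:23664808-23665057 on the plus strand of GRCr8 is shown as the window with a Runx core, ACCACA, in capitals beside TTTAAA, while the other start held none of the letters searched.
Runx2: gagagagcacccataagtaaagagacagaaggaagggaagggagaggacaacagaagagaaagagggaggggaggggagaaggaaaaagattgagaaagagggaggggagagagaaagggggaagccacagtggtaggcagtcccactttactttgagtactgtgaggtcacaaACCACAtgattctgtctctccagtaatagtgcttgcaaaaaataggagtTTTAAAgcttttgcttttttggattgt

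Sp7, osterix, which acts after Runx2 in osteoblasts, was not called in any comparison. It had 0.488, 0.323 and 0.448 CPM with erastin and miR-Exo, 0.223, 0.333 and 0.55 CPM with erastin and NPPC-Exo, 0.759, 0.588 and 0.677 CPM with miR-Exo alone and 0.606, 0.584 and 0.525 CPM with NPPC-Exo alone, from 13 to 44 counts a library. The changes with erastin were -0.68 with miR-Exo (interval -1.64 to 0.27, adjusted p = 0.225) and -0.63 with NPPC-Exo (interval -1.59 to 0.34, adjusted p = 0.289). Its SD reached 45.2% of its mean with erastin and NPPC-Exo, so these data do not settle whether it changed.

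The response to erastin differed between kinds of exosome for 3 of the 10, Enpp1, Mgp and Mef2c, where 12.8% of all genes tested had such an interaction, 7.01% below 0 and 5.81% above it. That test called 2006 genes, and the fits called between 1205 and 1300 when erastin and miR-Exo replicate 1 or 2, erastin and NPPC-Exo replicate 3, miR-Exo replicate 1 or NPPC-Exo replicate 2 was left out, and 2 to 4 of the 10 were called over all 12 such fits. The interaction was negative for Enpp1 and positive for Mgp and Mef2c.

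**Figure D4:**
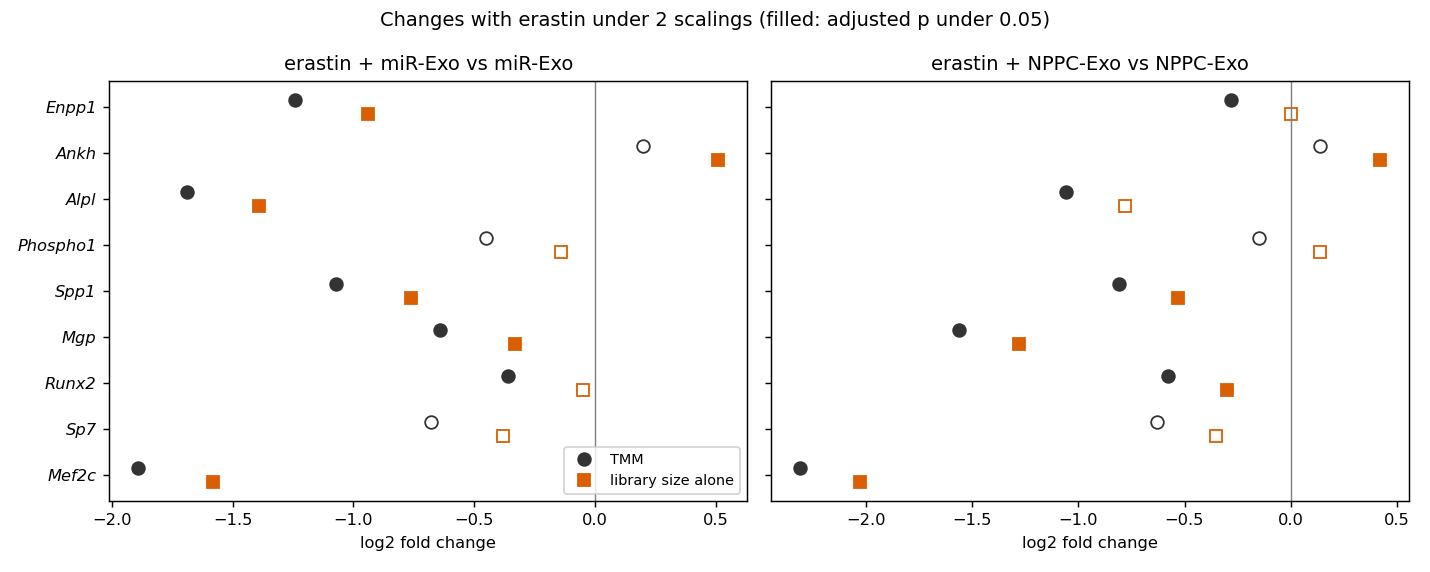
Log2 changes with erastin of the members other than Ibsp under TMM scaling (circles) and under library size alone (squares), filled where adjusted p was under 0.05, for both kinds of exosome. Enpp1 with NPPC-Exo stands at -0.28 with TMM and 0.002 with library size alone, and Runx2 with miR-Exo at -0.36 and -0.05.

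Around the 10 genes, 64 others of 5 pathway lists were tested, and with erastin 14 were higher and 29 lower with miR-Exo (median -0.38), and 8 higher and 27 lower with NPPC-Exo (median -0.18). Of all genes 24.7% were higher and 24.4% lower with miR-Exo (median 0.03), and 21.5% higher and 22.1% lower with NPPC-Exo (median 0.02). The counts of each list below are to be read against these shares, 49.1% called in either direction with miR-Exo and 43.6% with NPPC-Exo, and a list near its share is no result about the list. Under library size alone these became 18 higher and 25 lower (median -0.08) and 19 higher and 24 lower (median 0.10), so the second median changed sign. The lists were drawn from textbook roles, but with earlier results of these data known. Their median for miR-Exo against NPPC-Exo was -0.17 with erastin, with 15 higher and 17 lower. Without erastin it was -0.01, with 4 higher and 7 lower. In the same comparison 15.6% of all genes were higher and 15.8% lower with erastin, and 4.15% higher and 6.52% lower without it.

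Among the genes of pyrophosphate and phosphate handling, 9 tested, 5 rose and 1 fell with erastin and miR-Exo, and 2 rose and 1 fell with erastin and NPPC-Exo, or 7 and 6 rose and 1 fell in each under library size alone. Adora2b, a receptor for the adenosine that follows from ATP breakdown, rose with both, by 3.15 ± 0.24 with miR-Exo (adjusted p = 1.4e-07) and 2.50 ± 0.23 with NPPC-Exo (adjusted p = 1.36e-06). Slc20a2, a phosphate importer, fell by 0.90 ± 0.06 with miR-Exo (adjusted p = 7.97e-08) and by 0.67 ± 0.06 with NPPC-Exo (adjusted p = 1.7e-06). Its relative Slc20a1 averaged 206 ± 9.79 CPM with erastin and miR-Exo, 164 ± 5.66 with erastin and NPPC-Exo, 141 ± 2.59 with miR-Exo and 175 ± 7.9 with NPPC-Exo (SD, n = 3 each). Its interaction was 0.65 ± 0.07 (adjusted p = 0.000361). Enpp3, a relative of Enpp1 that also cleaves nucleotides, averaged 14.3 ± 2.75 CPM with erastin and miR-Exo, against 4.68 ± 0.569 with erastin and NPPC-Exo, 5.81 ± 0.809 with miR-Exo and 4.98 ± 0.649 with NPPC-Exo. Its interaction was 1.39 ± 0.24 (adjusted p = 0.00338), opposite in sign to that of Enpp1.

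Of the bone matrix proteins, 10 tested, 7 fell and 1 rose with erastin and miR-Exo (median -1.48), and 7 fell and 1 rose with erastin and NPPC-Exo (median -0.88), the same counts as under library size alone. Col1a1, the main collagen of bone and annulus, fell by 2.02 ± 0.16 with miR-Exo (adjusted p = 1.86e-07), and the fall was larger than with NPPC-Exo (interaction -0.98 ± 0.21, adjusted p = 0.0109). Sparc, osteonectin, fell by 1.05 ± 0.04 with miR-Exo and 1.02 ± 0.04 with NPPC-Exo (adjusted p = 5.24e-10 and 9.81e-10). Omd, osteomodulin, fell by 3.47 ± 0.27 with NPPC-Exo (adjusted p = 2.4e-07). Of the bone and hypertrophy transcription factors, 21 tested, 11 fell and 1 rose with erastin and miR-Exo, and 8 fell and none rose with erastin and NPPC-Exo, or 8 and 2, and 7 and 3, under library size alone. Hdac9, a repressor of Mef2 factors, fell by 2.58 ± 0.19 with miR-Exo (adjusted p = 1.15e-07) and 3.82 ± 0.21 with NPPC-Exo (adjusted p = 7.51e-09). Sox9, the cartilage factor, fell by 2.50 ± 0.21 with miR-Exo (adjusted p = 3.58e-07) with an interaction of -1.12 ± 0.28 (adjusted p = 0.0205).

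Of the hypertrophy signals and products, 15 tested, 5 rose and 4 fell with erastin and miR-Exo, and 4 rose and 8 fell with erastin and NPPC-Exo, or 6 and 4, and 6 and 6, under library size alone. Mmp13, a collagenase of hypertrophic cartilage, had 118 ± 1.92 CPM with erastin and miR-Exo and 1.53 ± 0.305 CPM with miR-Exo, and 92.6 ± 30.2 CPM with erastin and NPPC-Exo against 3.13 ± 0.962 CPM with NPPC-Exo (SD, n = 3 each). It rose by 6.26 ± 0.29 (adjusted p = 1.09e-09) and 4.89 ± 0.26 (adjusted p = 6.53e-09). Wnt5a, a secreted signal of chondrocyte maturation, rose by 1.74 ± 0.08 and 1.45 ± 0.08 (adjusted p = 1.36e-09 and 7.64e-09). Bmp6 rose by 1.18 ± 0.28 and 2.38 ± 0.29 (adjusted p = 0.00327 and 1.56e-05). Bmp4 changed by -0.01 ± 0.14 and 1.13 ± 0.14, only the second being called (adjusted p = 0.957 and 2.56e-05). Some other genes of the list fell with erastin. Fgfr3 changed by -1.41 ± 0.12 and -0.75 ± 0.12 (adjusted p = 6e-07 and 0.00019). Panx3 changed by -4.80 ± 0.79 and -3.87 ± 0.75 (adjusted p = 0.000222 and 0.000826). Col10a1, scarce in all groups, changed by -3.05 ± 0.93 with NPPC-Exo (adjusted p = 0.0172). With miR-Exo its change, -1.59 ± 0.85, was not called (adjusted p = 0.141). Ptch1, a Hedgehog receptor, rose by 0.68 ± 0.09 with miR-Exo and fell by 0.54 ± 0.09 with NPPC-Exo (adjusted p = 2.84e-05 and 0.000236). Its interaction was 1.22 ± 0.13 (adjusted p = 0.000181). Among the mineralisation inhibitors and their processing, 9 tested, 6 fell and 2 rose with erastin and miR-Exo and 3 fell and 1 rose with erastin and NPPC-Exo, or 5 and 2, and 3 and 3, under library size alone. Gas6 fell by 2.18 ± 0.06 and 1.76 ± 0.06 (adjusted p = 1.33e-11 and 9.56e-11), Tnfrsf11b, osteoprotegerin, by 1.19 ± 0.06 and 1.79 ± 0.06 (adjusted p = 1.82e-09 and 5.45e-11), and Ggcx, the enzyme that gamma-carboxylates Mgp, by 0.56 ± 0.07 and 0.66 ± 0.07 (adjusted p = 1.08e-05 and 2.62e-06). Grem1, of the same list, went the other way and rose by 0.29 ± 0.05 and 0.53 ± 0.05 (adjusted p = 0.000637 and 3.83e-06). In each of these pairs the value with miR-Exo stands first.

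**Figure D5:**
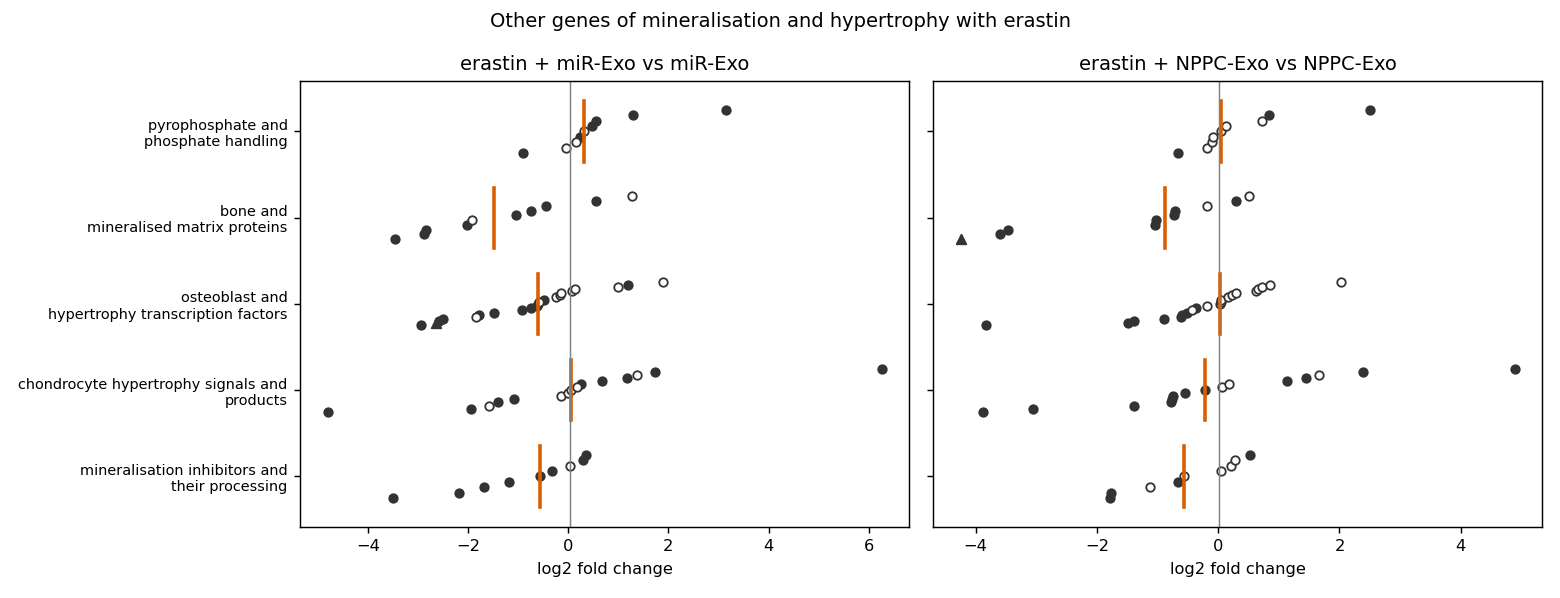
Log2 changes of the other genes of the 5 pathway lists with erastin, for each kind of exosome, a circle for each gene, filled where adjusted p was under 0.05, and a triangle for the bound of a gene at 0 counts in a group. The orange mark is the median of a list and the grey line that of all genes, and the bone matrix list with erastin has the lowest median, near -1.49 with miR-Exo.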

How the data were processed

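Total RNA of the cells went into libraries that mark the strand with dUTP, per the labels' protocols. In the deposited table the authors give a raw count for each gene and library, together with FPKM, normalised for gene length and total count and rounded to 2 decimals. The submitters' processing notes name StringTie and the mRatBN7.2 build without versions, while for aligner, counter, strand setting and filters no source used here gives a name. Since the table's coordinates may come from an older assembly, none are printed. Of counts from 1 to 20, 57.3% were even, and a fit on halved counts was among the alternatives.

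Counts were filtered by filterByExpr, scaled by TMM (factors 0.877 to 1.15) and fitted on 4 group means with edgeR 4.0.16 in R 4.3.3 (quasi-likelihood test, Benjamini-Hochberg adjustment over 15650 genes), tested on simulated data first. CPM are counts over scaled totals, and a floor is 3 counts per library. The alternatives were DESeq2 1.42.0, limma 3.58.1 on log2(FPKM + 1) and log2(FPKM + 0.1), other scalings and filters, a replicate block, the compared groups alone, and leaving out each library. Nothing in the labels ties a replicate to its own culture or animal, so p measures only the spread between libraries, which may be technical. All pairs of libraries in a group differed by more than counting noise. The members and lists were chosen with earlier results of these data known. Named genes were all 10 members and some of those that a rule picked from each list and comparison. The rule took up to 3 genes with the smallest adjusted p. They had to be called and to average at least 1 FPKM in the highest group. Genes it picked that are left without values include Lox, higher with erastin for both kinds of exosome, and Bmp1 and Hdac5, lower with both. Panx3 and Col10a1 were named besides, as genes of the hypertrophy list that fell.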

Additional observations from a re-analysis of the deposited data

Results flagged for a closer look

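The effect of erastin differed between kinds of exosome for 3 of the 10 genes, by a test of the difference itself. The same test called 12.8% of all genes tested. The log2 effect with miR-Exo minus that with NPPC-Exo was -0.96 for Enpp1, 0.92 for Mgp and 0.43 for Mef2c (adjusted p = 2.61e-05, 0.00166 and 0.0177, edgeR's quasi-likelihood test). Enpp1 averaged 226 ± 11.5 CPM with erastin and miR-Exo, 707 ± 42.9 with erastin and NPPC-Exo, 535 ± 13.6 with miR-Exo and 859 ± 15.1 with NPPC-Exo (SD, n = 3 each). The call for Mef2c was lost when any of 3 libraries was left out, and those for Enpp1 and Mgp were kept in all 12 such fits.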

How the results depend on the processing

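Over the settings other than leaving out a library, the counts of all genes and of members called stayed within 1.5 times their values in each of the 5 comparisons. Of 484 member values 455 kept direction and call, 9 reversed, 11 became called and 9 lost a call. Reversed were, under library size alone, Enpp1 (0.002) and Phospho1 (0.14) for erastin with NPPC-Exo, and Alpl for miR-Exo against NPPC-Exo (0.03). In log2(FPKM + 1) and log2(FPKM + 0.1) Phospho1 (0.08 and 0.21) and Alpl (0.02 and 0.06) reversed in the same comparisons, as did the interaction of Ibsp (0.26 and 0.48). The cause was not tested.

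Leaving out each library in turn, genes called ranged from 5971 to 6865 for erastin with NPPC-Exo, 6766 to 7878 for erastin with miR-Exo, 970 to 1854 for miR-Exo against NPPC-Exo, 3784 to 5168 for the same under erastin, and 1205 to 2419 for the interaction. Members called ranged over 6 to 7, 7 to 8, 4 to 5, 5 to 6 and 2 to 4. Member values that reversed ranged from -0.38 to 0.37 (Phospho1, erastin with NPPC-Exo), -0.21 to 0.30 (Alpl, miR-Exo against NPPC-Exo), -0.01 to 0.13 (Ankh, interaction), -0.35 to 0.32 (Sp7, interaction), -0.10 to 0.57 (Sp7, exosome kinds under erastin) and -4.33 to 0.95 (Ibsp, interaction). For exosome kinds under erastin Ibsp, all of whose counts came from 1 library, was called without erastin and NPPC-Exo replicate 1 or 2 (adjusted p = 0.0386 and 0.035) and by DESeq2 (0.0141).

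Same-numbered libraries had deviations from their group means correlated at -0.057 to 0.122, and differently numbered ones at -0.103 to 0.071. Deviations within a group of 3 libraries depend on each other, so these correlations cannot settle whether the replicate numbers mark pairs. With a replicate block 6720, 7596, 1560, 4847 and 1928 genes were called in the 5 comparisons in the order above, and the interaction of Spp1, -0.26, was called (adjusted p = 0.0221). Sp7 gave no value with a minimum of 1 CPM. It had 13 to 44 counts a library, and the part of depth in its missing call was not tested.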

Other observations

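Within each library the ratio of Enpp1 to Runx2, in FPKM, was 11.7, 10.2 and 10.1 with erastin and miR-Exo, 23.6, 23.1 and 25.5 with erastin and NPPC-Exo, 18.6, 19.9 and 20.3 with miR-Exo alone and 18.5, 19.7 and 20.2 with NPPC-Exo alone. The exosome kinds overlapped without erastin and lay apart with it, and this pair of genes was chosen after their values were seen. Spp1 alone took 0.157 to 0.178% of all counts with erastin and miR-Exo and 0.341 to 0.401% with NPPC-Exo alone.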
